A study of Mus musculus with 60 samples.

Results

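The comparison is between 5 libraries of white fat taken at zeitgeber time (ZT) 8 and 5 taken at ZT16 from mice that lack Bmal1 in the liver (KO), chosen by their titles from the 60 libraries of the series. Epididymal white adipose tissue (eWAT), the fat pad beside the male epididymis, was sequenced with Smart-seq3, which copies full-length cDNA and was applied here to RNA of whole tissue. The series holds wild-type (WT) and KO male mice at 6 times, 4 h apart, with 5 libraries per genotype and time. The genotype of all 10 libraries is given as Liver-Bmal1-KO, which by its name places the deletion in liver. That the fat that was sequenced keeps the gene is inferred from this name and was not checked. The promoter that drives the deletion, the age of the mice, the light schedule and whether each library is a separate mouse are not stated in the labels. The p-values therefore describe only how these libraries vary, and part of that may be technical.

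Bmal1 encodes a transcription factor that pairs with CLOCK and drives the genes of its own repressors, the Per and Cry families, and this loop gives cells a daily rhythm. Zeitgeber time counts hours from lights on, and under the usual schedule ZT8 falls in the light phase, when mice rest and fast, and ZT16 in the dark phase, when they are active and feed. White fat is known to store lipid after feeding and to release fatty acids during fasting, and both its own clock and signals from other organs, such as hormones and nutrients, can time these processes. The comparison asks how much of the fat transcriptome differs between these times when the liver has no working clock.

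The deposited table gives its rows no names or identifiers. Rows are numbered here in the order of the data lines and no gene can be named, so clock genes, lipid genes and markers of fat or of other cells were not looked up and the genotype and tissue labels were not checked against them. Each comparison names at most 2 rows higher and 2 rows lower at ZT8, those with the smallest p. They were chosen on the same libraries that are compared, so their separation, fold changes and intervals are descriptions.

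Of the ZT16 libraries, 4 were deeper than every ZT8 library. Total counts at ZT8 were 41530, 84035, 53651, 58490 and 54377 in replicates 1 to 5, and at ZT16 they were 126696, 321560, 47858, 235254 and 162061. The ranges overlapped through ZT16 replicate 3 alone, and the means were 58417 ± 15656 at ZT8 and 178686 ± 104533 at ZT16 (SD, n = 5 each; exact two-sided permutation test, p = 0.0397, Benjamini-Hochberg adjusted over 3 library measures 0.0595). The smallest p that 5 against 5 allows is 0.00794. A tested row had a median of 14 counts in a ZT8 library and 40 in a ZT16 library, which sets the precision of its level.

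No difference in the number of features seen was detected at matched depth. With every library thinned at random to 41530 counts, 8145 ± 238 table rows had a count at ZT8 and 8499 ± 850 at ZT16 (SD, n = 5 each; exact two-sided permutation test, p = 0.437). ZT16 replicate 1, with 9752 rows, and ZT16 replicate 3, with 8919, were the highest of the 10, and the other ZT16 libraries lay between 7749 and 8320.

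The share of counts held by a few features was on average larger at ZT8, but did not pass the test after adjustment. The 50 most abundant rows of each library held 28.3%, 30.4%, 29.5%, 28.4% and 30.7% of the counts in ZT8 replicates 1 to 5. At ZT16 they held 20.8%, 27.7%, 23.6%, 28.5% and 27.9%. The difference of the means was 3.76 percentage points (exact two-sided permutation test, p = 0.0238, adjusted over 3 measures 0.0595), and the lowest values were those of ZT16 replicates 1 and 3. ZT16 replicate 4 lay above ZT8 replicates 1 and 4, so the groups overlapped. The difference was 3.45 to 4.05 points when any ZT8 library was left out, with an exact permutation p of 0.0556 to 0.0952. When any ZT16 library was left out it was 2.54 to 4.46 points, with an exact permutation p of 0.00794 to 0.0397. These p-values are not adjusted.

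**Figure D1:**
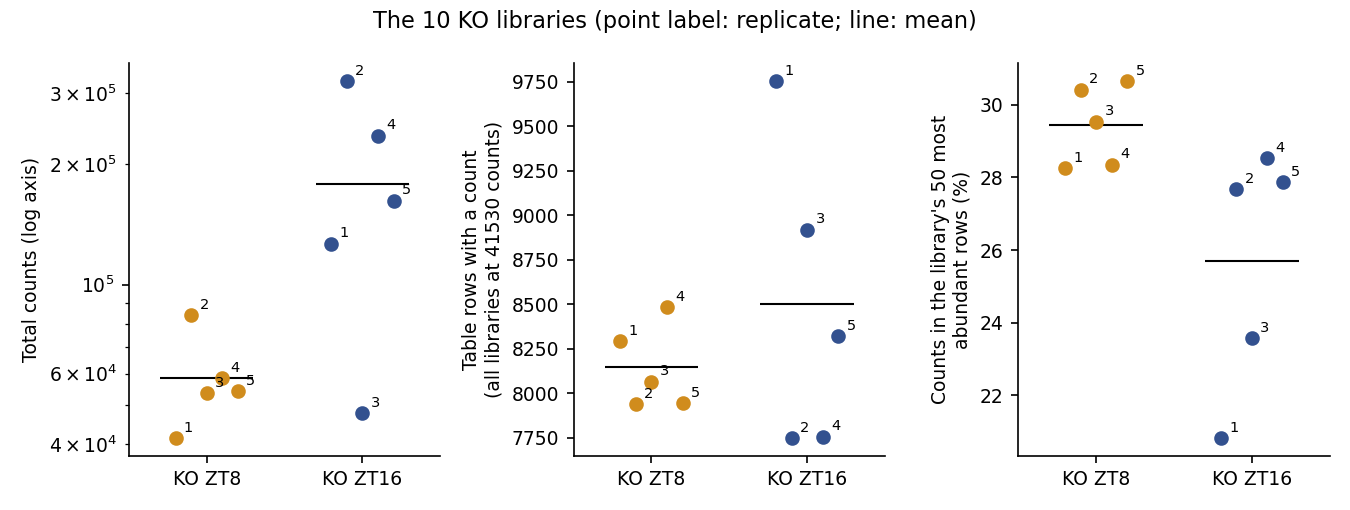
Total counts on a log axis, table rows with a count after thinning to 41530 counts, and the percent of counts in the 50 most abundant rows, for each of the 5 KO ZT8 and 5 KO ZT16 libraries; a point is a library labelled with its replicate number and a line is the group mean. Every ZT8 total lay below every ZT16 total but that of replicate 3, which was above ZT8 replicate 1 only. ZT16 replicates 1 and 3 were highest in the rows seen and lowest in the share of the 50 most abundant.

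Libraries of different times resembled each other about as much as libraries of the same time. The measure was log2 CPM (counts divided by a total, on a fixed scale) with a prior count of 2. The total was that of the tested rows, scaled by trimmed means of M-values. Across the 1127 rows tested, which are not independent replicates, the median Pearson correlation was 0.859 over the 10 pairs within ZT8. It was 0.869 over the 10 pairs within ZT16 and 0.855 over the 25 pairs between them. ZT8 replicate 1 (median of 0.760 with the other libraries) and ZT16 replicate 3 (0.736) were the least like the rest, and they are the shallowest of their groups. Without both, the medians were 0.877, 0.892 and 0.880. None of the 10 libraries was among the 19 of the series that stand apart from the rest on the first principal component, whose scores began at 39.1, while the 10 lay between -41.9 and 0.29.

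Few of the features with enough counts to test were called different between ZT8 and ZT16. Of 1127 rows with enough counts to test, out of 17999 with any count, 3 were called (edgeR quasi-likelihood test, adjusted p under 0.05), which is 0.266% of the rows tested. Table rows 16182 and 21636 were higher at ZT8 (0.177% of rows) and table row 11996 was lower (0.0887%). The 3 changes ranged from 1.99-fold to 2.42-fold. At an adjusted p under 0.10 the numbers were 5 higher and 3 lower. The tested rows held 48.7% to 63.7% of a library's counts, the lowest shares being those of ZT16 replicates 3 and 1, and the other rows were left out by the filter on low counts. With no such filter 2 of 17999 rows were called, neither of them among the 3.

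The calls were not stable to the libraries or to the tool. Leaving out 1 library at a time gave between 0 and 11 called rows: 0 without ZT8 replicates 1, 2 or 4 or without ZT16 replicate 1, 2 without ZT8 replicates 3 or 5, 3 without ZT16 replicate 2, 1 without ZT16 replicates 4 or 5, and 11 without ZT16 replicate 3. The 1 row called without ZT16 replicate 5 was none of the 3 reported, and without ZT16 replicate 3 all 3 were among the 11. DESeq2 on the same rows called 9, with the 3 among them, and limma called 0, with 121 rows at an unadjusted p under 0.05.

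**Figure D2:**
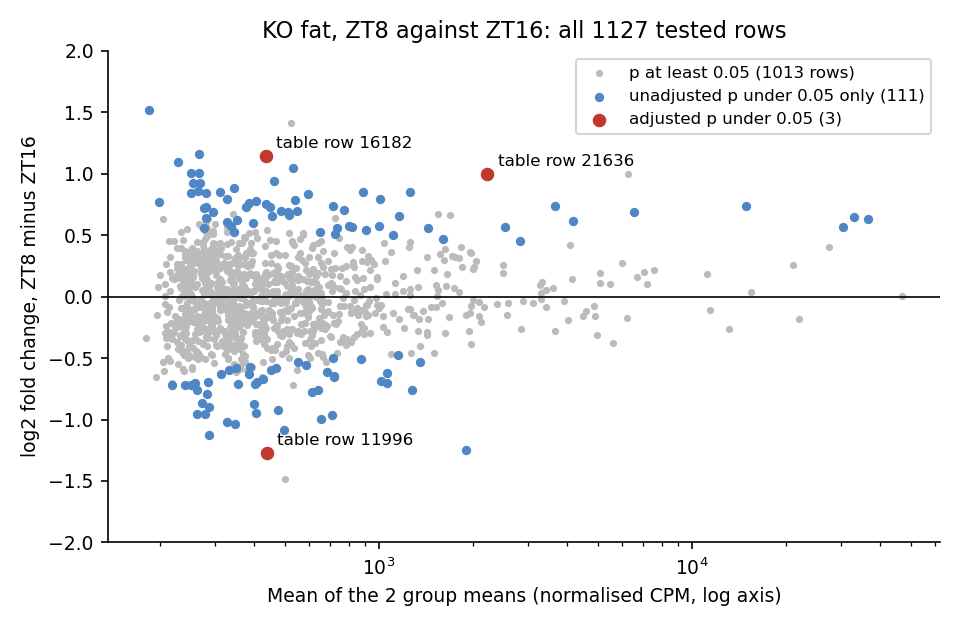
Each point is 1 of the 1127 tested rows, placed by its mean level (normalised CPM, log axis) and by its log2 fold change, ZT8 minus ZT16, in KO fat. The 3 rows with an adjusted p under 0.05 are red, rows with only an unadjusted p under 0.05 are blue, and the cloud is centred at a median of -0.01.

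Table row 16182 was higher at ZT8. Its normalised CPM (CPM over the counts of the tested rows, scaled by trimmed means of M-values) was 727, 581, 393, 642 and 713 in ZT8 replicates 1 to 5, from 13 to 30 counts, and 236, 304, 162, 299 and 292 in ZT16 replicates 1 to 5, from 4 to 63 counts. All 5 ZT8 libraries lay above all 5 ZT16 libraries, and the lowest ZT8 value was that of replicate 3. The groups did not overlap, in either direction, in 2.75% of the tested rows. The log2 fold change, ZT8 minus ZT16, was 1.14 ± 0.25 (SE; edgeR adjusted p = 0.0319), with a 95% interval of 0.63 to 1.65.

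Table row 21636, among the more abundant rows at rank 54 of 1127 by mean level, was also higher at ZT8. Its normalised CPM was 3633, 3544, 2359, 2307 and 3036 at ZT8, from 78 to 183 counts, and 1387, 1652, 1050, 2152 and 1108 at ZT16, from 26 to 342 counts. The groups did not overlap, but ZT16 replicate 4 came close to ZT8 replicates 3 and 4. The log2 fold change was 0.99 ± 0.22 (SE; edgeR adjusted p = 0.0319), with a 95% interval of 0.54 to 1.45.

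Table row 11996 was lower at ZT8. Its normalised CPM was 85.5, 213, 272, 321 and 403 in ZT8 replicates 1 to 5, from 2 to 13 counts, and 679, 787, 404, 631 and 594 at ZT16, from 10 to 163 counts. ZT8 replicate 5 and ZT16 replicate 3 were nearly equal, so the groups only just failed to overlap. The log2 fold change was -1.27 ± 0.29 (SE; edgeR adjusted p = 0.0319), with a 95% interval of -1.86 to -0.69. With the total count as a covariate it was -0.84 (adjusted p = 0.343), and the row was then not called.

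The next row in that direction, table row 5570, was not called (log2 fold change -0.97 ± 0.24 SE, edgeR adjusted p = 0.0620). Its normalised CPM was 470, 542, 423, 496 and 403 at ZT8 and 767, 662, 1292, 1010 and 997 at ZT16. The groups did not overlap, and the SD was 245 at ZT16 against 56.1 at ZT8. Of 12 other settings it was called in 3. These were DESeq2 (adjusted p = 0.0410), the total count as a covariate (edgeR adjusted p = 0.0265) and thinning to a common depth (edgeR adjusted p = 0.0238). Of the 10 fits that left out 1 library it was called in 1, without ZT16 replicate 2 (edgeR adjusted p = 0.0498). With limma it was not called (adjusted p = 0.0868).

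**Figure D3:**
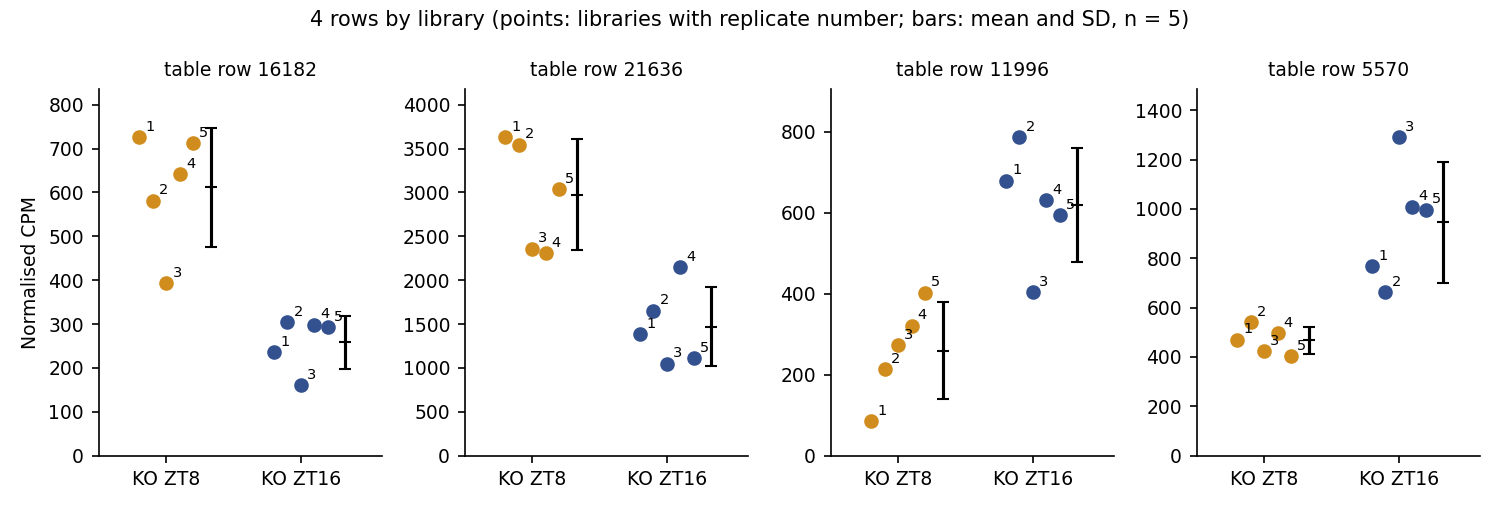
Normalised CPM of table rows 16182, 21636, 11996 and 5570 in each KO library, on axes that start at 0; points are libraries with their replicate number, and bars give the mean and SD (n = 5). In each of the 4 rows the ZT8 and ZT16 libraries do not overlap, and table row 11996 comes closest, with 403 in ZT8 replicate 5 against 404 in ZT16 replicate 3. The rows were chosen by p on these libraries, so the separation is a description. Over all 1127 tested rows the groups did not overlap in 31 (2.75%).

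The direction of these 4 rows did not depend on the setting, while the call did. Over all fits run the log2 fold change was 0.94 to 1.49 for table row 16182, 0.80 to 1.43 for table row 21636, -1.47 to -0.84 for table row 11996 and -1.26 to -0.85 for table row 5570. The libraries had been used to choose the rows, so the constant direction adds no support. Of the 10 fits that left out 1 library, table row 16182 was called in 3, table row 21636 in 4, table row 11996 in 2 and table row 5570 in 1. In the 12 other settings table row 16182 was called in 4 and table row 21636 in 5. Table row 11996 was called in 3 of these 12, the same number as table row 5570. ZT16 replicate 3, 1 of the 2 libraries least like the rest, could be left out with all 3 reported rows still called.

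**Figure D4:**
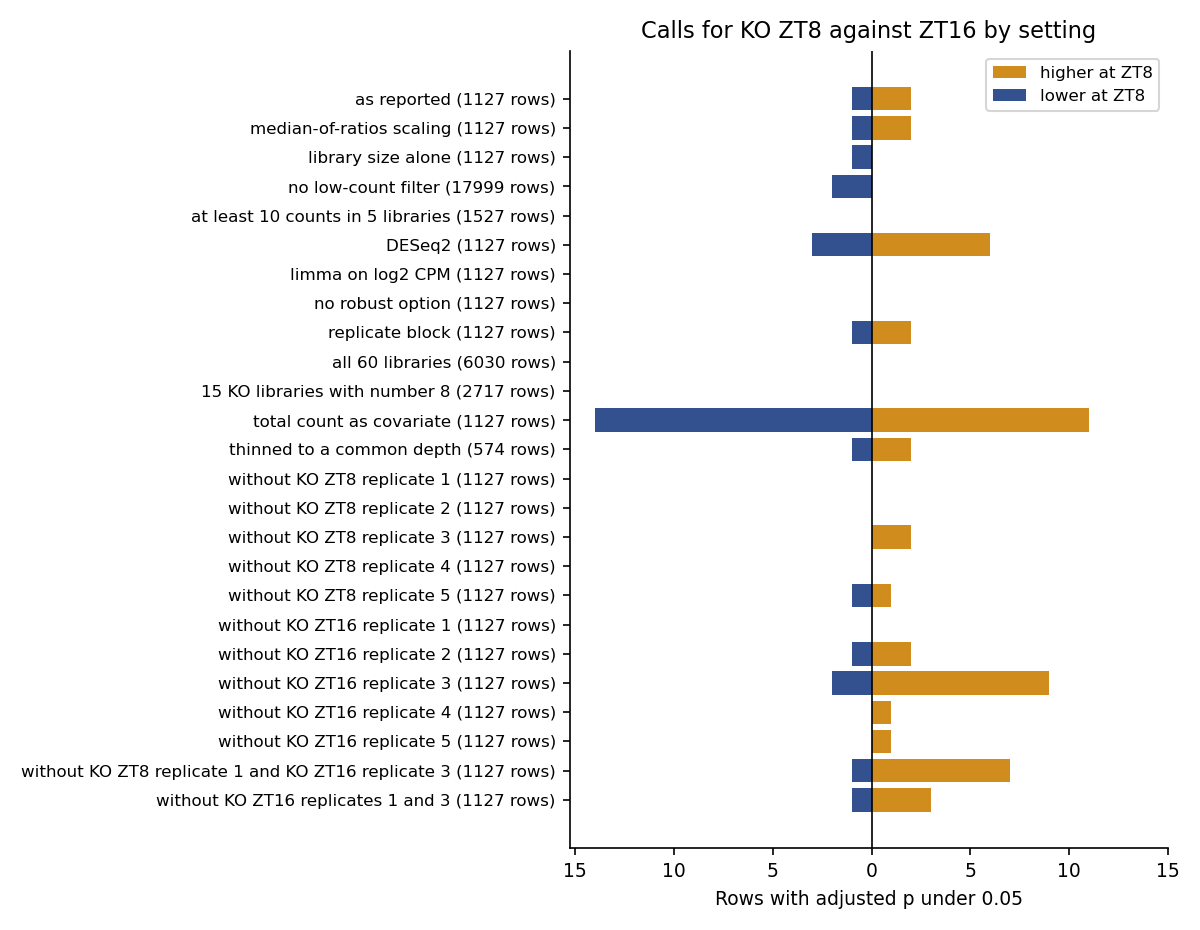
Rows with an adjusted p under 0.05 for KO ZT8 against ZT16 in each setting, with rows higher at ZT8 to the right of 0 and rows lower at ZT8 to the left, and the number of rows tested in brackets. The count was 3 as reported, 0 in 9 of the other fits drawn, and at most 25, with the total count as a covariate.

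Over the whole set of tested rows, differences were small. The median log2 fold change, ZT8 minus ZT16, was -0.01, 90% of rows fell between -0.57 and 0.61, and the median size without sign was 0.24, below the median SE of 0.27. The size passed 1 (log2) in 16 rows, 9 higher and 7 lower at ZT8, and 14 of the 16 had an unadjusted p under 0.05. For 862 rows, 76.5% of those tested, the 95% interval lay wholly between -1 and 1, so a change of 2-fold in either direction was outside it.

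An unadjusted p under 0.05 was found for 114 rows, 10.1% of those tested, against 56.4 at a rate of 5%; rows vary together, so this excess has no test. Of these, 66 were higher (5.86%) and 48 lower (4.26%) at ZT8. With library size alone as the scaling the split turned to 46 higher and 86 lower; with no filter on low counts it was 233 higher and 952 lower over 17999 rows (median log2 fold change -0.39), and with all 60 libraries in the fit 57 higher and 141 lower. The balance of directions thus depends on the scaling, the filter and the libraries fitted. Over the 114 rows the median size was 0.71 (log2), with a range of 0.45 to 1.52. The range of the count was 93 to 133 when 1 library was left out. In 31 rows, 2.75% of those tested, the groups did not overlap, with ZT8 above in 20 and below in 11, and 28 of the 31 had an unadjusted p under 0.05.

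Split into 3 equal classes by mean level, the low class had an unadjusted p under 0.05 in 30 of 376 rows (7.98%), the middle class in 38 of 375 (10.1%) and the high class in 46 of 376 (12.2%). The differences between classes were not tested. The median SE was 0.31, 0.27 and 0.24 in that order, while the median size of the fold change was 0.27, 0.22 and 0.22.

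Of the 50 most abundant rows by mean level, 9 had an unadjusted p under 0.05, all of them higher at ZT8, with log2 fold changes of 0.45 to 0.74, while over all tested rows 5.86% were higher and 4.26% lower at that p. None of the 50 was called (lowest adjusted p = 0.107 by edgeR), and their median log2 fold change was 0.08 against -0.01 over all tested rows. The same 50 rows gave 1 higher and 1 lower with no filter on low counts, 0 and 0 with all 60 libraries in the fit, and 9 higher and 2 lower without ZT16 replicates 1 and 3, the libraries in which abundant rows took the smallest share of counts. Leaving out 1 library at a time gave 7 to 11 of these rows higher and 0 or 1 lower. DESeq2 gave 11 and 0, limma 10 and 0, and library size alone 8 and 1. These fits share most of their libraries, so they are not separate support. In bulk tissue, more cells of a type and more RNA per cell cannot be told apart.

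The other times of the day place these 4 rows in context, on the scale of CPM taken over all counts of a library. In KO fat table row 16182 had its lowest mean at ZT16, 155 ± 48.7 CPM, and its ZT8 mean of 362 ± 71.6 CPM lay inside the range of the other 4 times, 281 to 421 CPM (SD, n = 5). Table row 21636 had its highest KO mean at ZT8, 1766 ± 360 CPM, and its mean at ZT12 was 1426 ± 771 CPM. Its ZT16 mean was 881 ± 337 CPM, close to the 886 ± 669 CPM at ZT20, and its means at ZT0 and ZT4 were 582 ± 656 and 981 ± 502 CPM.

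Both rows that were lower at ZT8 had their highest KO mean at ZT16. It was 369 ± 107 CPM for table row 11996, against 155 ± 71.3 CPM at ZT8 and 106 to 230 CPM at the other times. For table row 5570 it was 552 ± 124 CPM, against 278 ± 36.0 CPM at ZT8 and 219 to 390 CPM at the other times (SD, n = 5). The rows were chosen on the ZT8 and ZT16 libraries, so their place at those times is a description. Of the other KO times, 3 of 5 libraries at ZT0, 1 at ZT4, 1 at ZT12 and 2 at ZT20 stand apart in their overall profile. Without them the KO mean of table row 21636 was 1211 CPM at ZT0 (2 libraries), 1359 CPM at ZT20 (3 libraries) and 1705 CPM at ZT12 (4 libraries), the last close to its ZT8 mean. For table row 11996 the means at the other 4 times were then 221 to 282 CPM, which leaves its ZT8 mean of 155 CPM the lowest.

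**Figure D5:**
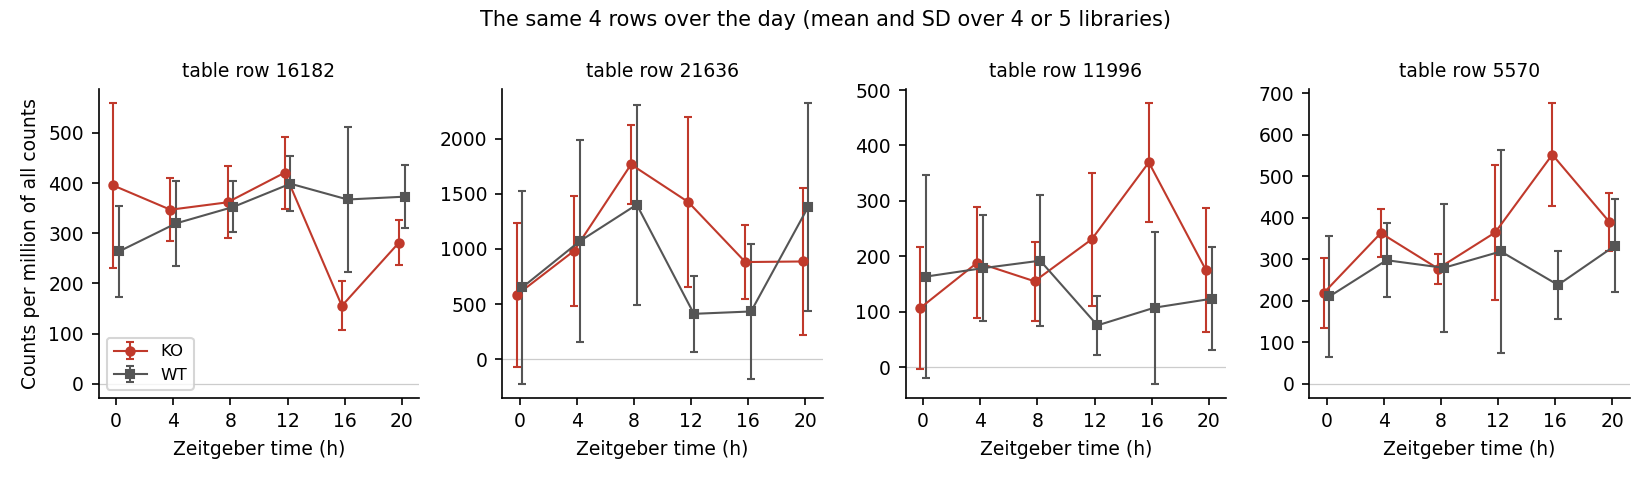
CPM taken over all counts for the 4 rows at each zeitgeber time (h) in KO (red circles) and WT (grey squares), as mean and SD over 5 libraries, or 4 at WT ZT8 and WT ZT12, where 1 library under 10000 counts was left out. In KO, ZT16 is the lowest mean of table row 16182 and the highest of rows 11996 and 5570, while ZT8 is the highest of table row 21636.

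A pair of KO times that shares no library with the comparison kept the sign in about as many of these rows as of all rows. For ZT4 minus ZT20, 59 of the 114 rows with an unadjusted p under 0.05 had the same sign as for ZT8 minus ZT16 (51.8%), and 553 of all 1127 rows did (49.1%). Without the libraries standing apart, which leaves 4 at ZT4 and 3 at ZT20, the shares were 49.1% and 50.1%. These are other points of the cycle, and a daily rhythm that differs between ZT8 and ZT16 need not differ between ZT4 and ZT20.

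The same times in WT fat, with the liver clock intact, gave no called rows in a fit of 20 libraries over 3315 rows (0% of rows; edgeR, smallest adjusted p = 0.0800). At an unadjusted p under 0.05 there were 705 rows (21.3%), 350 higher and 355 lower at ZT8, and DESeq2 called 93. In this same fit ZT8 against ZT16 in KO also gave 0 called rows, with 138 rows (4.16%) at an unadjusted p under 0.05, where a rate of 5% gives 165.8, and a smallest adjusted p of 1. WT ZT16 has 4 of 5 libraries standing apart and WT ZT8 has 1, beside 1 with 3996 counts, and the part of this in the WT result was tested only by leaving libraries out. Without these, 160 rows had an unadjusted p under 0.05 and 0 were called, with 3 libraries left at ZT8 and 1 at ZT16, which is assumed to vary like the others. The edgeR count was 1001 without WT ZT8 replicate 4, the library there that stands apart. It was 540 without WT ZT16 replicate 1, the library there that does not. The WT count of 0 thus depends on single libraries. Each of these 2 drops lines time up more closely with the split into libraries that stand apart and the rest. The counts of 1001 and 540 therefore cannot be told apart from that split.

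The difference between the genotypes in ZT8 minus ZT16 was called in 0 of 3315 rows (0%) by edgeR and by DESeq2, with 243 rows at an unadjusted p under 0.05 and a smallest adjusted p of 0.634 by edgeR. Without WT ZT8 replicate 4, a library standing apart, it was called in 113 rows. No WT ZT8 library then stands apart, against 4 of 5 at WT ZT16, so this count cannot be told apart from that split. For table row 16182 the difference, KO minus WT, was 1.45 (log2; 95% interval 0.49 to 2.40, adjusted p = 0.634), and for table row 11996 it was -2.07 (-4.02 to -0.12, adjusted p = 0.640). For table rows 21636 and 5570 the differences were -0.53 and -0.95, with upper bounds of 1.33 and 0.11 and adjusted p-values of 0.899 and 0.658. No adjusted test passed, and each of the 4 intervals also holds a difference larger than the KO change itself. The 4 rows were chosen by p on the same KO libraries that enter this difference. Its size and intervals for these rows are therefore descriptions.

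Of the 114 rows with an unadjusted p under 0.05 in KO, 75 had the same sign in WT fat (65.8%), against 603 of all 1127 (53.5%). The WT libraries are none of those that chose the rows. However, 4 of 5 libraries at WT ZT16 stand apart, against 1 at WT ZT8, so time is mixed with that split. The shares were 63.2% and 54.7% without the libraries standing apart. That leaves 3 libraries at WT ZT8 and 1 at WT ZT16, so the ZT16 side then rests on a single library. Of the rows higher at ZT8 in KO, 47 of 66 had the same sign in WT, and of those lower, 28 of 48. Without the libraries standing apart these were 38 of 66 and 34 of 48. These shares are descriptions, since rows vary together within a library.

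The 10 libraries share the number 8 in their names, and the letters before it run from A to E at ZT8 and from K to O at ZT16. The labels do not say what the letters or numbers stand for. Whatever follows the letter cannot be told apart from time in this comparison.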

How the data were processed

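Per the file headers, the deposited values are whole-number counts per feature from sorted, deduplicated alignments, with no normalization by the authors. Alignment used STAR 2.5.4b and mm10 (GRCm38), per the submitters' processing notes. The counting program, annotation and strand setting: not given in the sources used here. Therefore features that overlap or share reads cannot be told apart. The table has 180 columns, and 120 that matched no library by name were not used.

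The main test was edgeR 4.0.16 (R 4.3.3): rows kept by filterByExpr on the 2 groups, TMM scaling (trimmed means of M-values), a robust quasi-likelihood fit of the 10 libraries, and Benjamini-Hochberg adjustment over the 1127 rows, with a threshold of 0.05. The fitted common biological coefficient of variation was 0.243. The WT and genotype comparisons used 4 group means over 20 libraries. DESeq2 1.42.0 and limma 3.58.1 were alternatives, beside other scalings, filters, depths and sets of libraries. Standing apart was defined by the widest gap in the first principal component over the 58 libraries with at least 10000 counts. All 20 within-group library pairs differed by more than counting noise (chi-square per degree of freedom at least 1.38), so none was treated as a copy of another.

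The libraries compared and the rules were chosen with earlier results of these data known. The named rows are the 2 higher and 2 lower at ZT8 with the smallest p. The gene and marker lists set down for the case that rows had names could not be applied. The counts for the 50 most abundant rows, for the other pairs of times and for the fits without 2 libraries were added after seeing the data.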

Additional observations from a re-analysis of the deposited data

Results flagged for a closer look

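A search for single far values in 16 groups of 5 found 2, and chance alone gives about 0.8. The median correlation with the other libraries was far below the rest of the group in KO ZT8 replicate 1, at 0.760 against 0.864 for the nearest. It was also far below in KO ZT16 replicate 3, at 0.736 against 0.843 for the nearest. They are the shallowest library of each group, with 41530 and 47858 counts, and the part of depth in these values was not tested. Without both, 8 rows were called, 7 higher and 1 lower at ZT8, and 2 of the 3 reported rows were among them.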

How the results depend on the processing

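The count of 3 called rows (2 higher, 1 lower at ZT8) was the same with median-of-ratios scaling. It was 1 (0 higher) with library size alone, and 2 (0 higher, 2 lower) with no filter on low counts. It was 0 in both directions with at least 10 counts in 5 libraries, with limma, without the robust option, with all 60 libraries, with the 15 KO libraries numbered 8, and at an adjusted p under 0.01. It was 9 (6 higher, 3 lower) with DESeq2, 25 (11 and 14) with the total count as a covariate, 8 (5 and 3) at an adjusted p under 0.10, 8 (7 higher) without KO ZT8 replicate 1 and KO ZT16 replicate 3, and 4 (3 and 1) without KO ZT16 replicates 1 and 3. Thinning to a common depth left 574 rows and again 3 calls, sharing 1 row with those reported. Leaving out 1 library gave 0 to 11 rows, 0 to 9 higher and 0 to 2 lower. The cause of these shifts was not tested, beyond the number of rows or libraries that a setting itself changes.

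No pairing by replicate number was detected. Of the same-numbered pairs, 0 of 5 had deviations correlated above 0.1 (range -0.19 to 0.09), and 0 of 5 ZT8 libraries matched its own number best. With a median of 14 counts per tested row in a ZT8 library, a weak pairing could go unseen. With the replicate block 3 rows were called, 2 higher and 1 lower, 2 of them among the reported 3, and the WT and genotype counts were 0.

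The WT count of 0 was 5 with library size alone, 50 with no filter and 93 with DESeq2, and 0 to 1001 leaving out 1 library. The genotype difference was 1 with no filter, and 0 to 113 leaving out 1 library. The difference in total counts, ZT8 minus ZT16, was -152976 to -84551 leaving out 1 library. The difference in the share of the 50 most abundant rows was 2.54 to 4.46 points. Without thinning, the difference in rows with a count was -2964 (exact permutation p = 0.0238).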
